A study of Mus musculus with 18 samples.

Results

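Ventricular RNA was compared among 12 mouse hearts that carried an added PLCβ1 splice variant, and each heart was placed by how much Plcb1 mRNA it contained. The 12 hearts were chosen by their vector, PLCβ1a or PLCβ1b (6 of each), from 18 in the whole series; the other 6 received a vector with no protein product (blank) and enter no comparison here. Within each group, the log2 level of every gene was related to the log2 level of Plcb1, both taken as differences from the mean of their group, so that a difference between the groups cannot enter. All mice were male C57BL/6, injected in the tail vein at 8 weeks of age with rAAV6, an adeno-associated virus that enters heart muscle cells, carrying FLAG-tagged PLCβ1a or FLAG-tagged PLCβ1b at the same vector dose, and their hearts were taken at 17 weeks. "Dose" below therefore means the Plcb1 mRNA measured in a heart, not an amount given to it. The vector's promoter is not named in the sources used here. The labels describe the tissue as both ventricles, whereas the study's methods describe the left ventricle. In such whole tissue, fewer cells of a type and less RNA per cell cannot be told apart. Each heart came from a separate mouse.

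Phospholipase Cβ1 works directly downstream of the G protein Gαq. It splits the membrane lipid PIP2 into inositol trisphosphate, which acts on calcium channels of internal stores, and diacylglycerol, which activates protein kinase C. The 2 splice variants share the catalytic and Gαq-binding regions and differ at the carboxyl terminus. PLCβ1b is the variant that locates to the muscle cell membrane and is active in heart, and PLCβ1a is described by the study as inactive there.

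The variants' different ends are shown because the gene-level counts used here cannot separate them, nor the vector's transcript from that of the mouse's own gene. The gene lies on the plus strand of chromosome 2, from 134786164 to 135475258 (mm10, deposited gene models). The coding end particular to PLCβ1b (32 codons before the stop) is at chr2:135399249-135399347, and that of PLCβ1a (75 codons before the stop) at chr2:135472053-135472280. Capitals mark the stop codon.
PLCβ1b coding end: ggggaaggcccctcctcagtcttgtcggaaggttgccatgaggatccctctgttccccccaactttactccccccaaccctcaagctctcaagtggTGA
PLCβ1a coding end: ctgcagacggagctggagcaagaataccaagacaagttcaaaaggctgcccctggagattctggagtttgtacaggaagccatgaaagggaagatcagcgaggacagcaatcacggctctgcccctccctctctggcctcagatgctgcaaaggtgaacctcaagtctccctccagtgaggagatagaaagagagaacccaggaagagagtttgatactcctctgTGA

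Plcb1 varied more among PLCβ1b hearts than among PLCβ1a hearts. In PLCβ1a hearts it ran from 17.8 to 29.2 CPM (read counts scaled to a common library size by TMM), with a median of 22.0, a 1.64-fold range. In PLCβ1b hearts it ran from 23.2 to 70.1 CPM with a median of 45.9, a 3.03-fold range. Hearts given the blank vector lay between 5.42 and 6.87 CPM. The counts behind these levels were 442, 431, 401, 360, 275 and 570 in PLCβ1a hearts 7, 9, 11, 13, 14 and 21, and 1598, 1211, 463, 795, 542 and 766 in PLCβ1b hearts 4, 6, 8, 10, 16 and 17, each heart carrying the number of its mouse. PLCβ1b heart 8 had less Plcb1 than PLCβ1a heart 21, so the groups overlapped. These levels are what the hearts were ordered by, and no test was made of them.

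**Figure D1:**
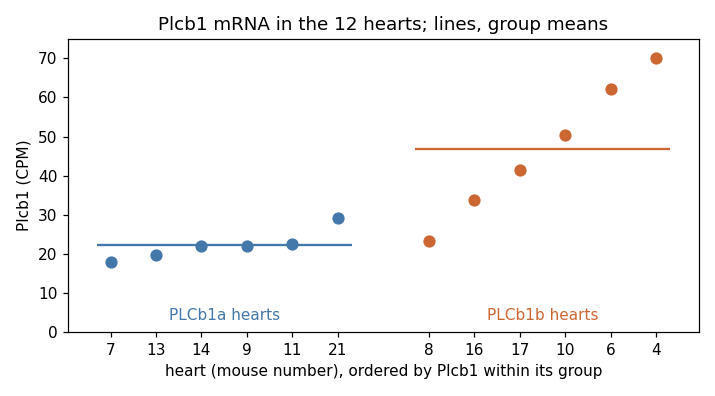
Plcb1 mRNA in CPM (vertical axis) in each of the 6 PLCb1a (PLCβ1a) and 6 PLCb1b (PLCβ1b) hearts, ordered by level within each group and labelled by mouse number. Points are single hearts and lines are group means, and the PLCβ1b hearts spread from 23.2 to 70.1 where the PLCβ1a hearts spread from 17.8 to 29.2.

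The hearts carried unequal weight in every slope that follows. Of the summed squared distances from the group means in log2 Plcb1, 86.0% came from PLCβ1b hearts. PLCβ1b heart 8 alone gave 41.7%, PLCβ1b hearts 4 and 6 gave 22.6% and 12.4%, and PLCβ1a heart 21, the highest of its group, gave 8.38%. Total counts were 13246339 to 24155465 per heart, of which 67.1 to 71.9% lay on mitochondrially encoded genes and 3908354 to 7591558 on nuclear genes.

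Few of the genes tested passed the threshold for a slope on Plcb1. The test covered 12105 genes, each with at least 10 counts per heart on average, of which 59 (0.487%) had a slope that differed from 0 at a false discovery rate (FDR) below 0.1 in edgeR's quasi-likelihood test, with Benjamini-Hochberg adjustment over all genes tested. Higher levels came with more Plcb1 for 21 of them (0.173% of genes tested) and lower levels for 38 (0.314%). A slope is the change in log2 level per doubling of Plcb1, and its median was 0.35 over the 21 and -0.49 over the 38, beside 0.0012 over all genes. At an unadjusted p under 0.05, 595 genes (4.92%) were higher and 582 (4.81%) lower. Together these were 1177 (9.72%), above the share of 0.05 that such a threshold passes on average where no gene is related. Genes not called are therefore not shown to be unrelated to Plcb1. With the dose computed without TMM, 43 were called higher and 45 lower. The calls rested on few hearts and on the count table. Without PLCβ1b heart 6, 11 genes were called, without PLCβ1a heart 21, 19, and without PLCβ1b heart 8, 93, of which 25 were among the 59; limma on log2 FPKM called 0. In its fit of genes above 0 FPKM in all 12 hearts (651 at an unadjusted p under 0.05), 53 of the 59 could be tested, and 53 kept their sign and 52 were at an unadjusted p under 0.05. With genes at 0 in some hearts included, Scarna10 and mt-Tq turned sign. The gene called with the least margin was mt-Te (FDR 0.0982), after Ctnnal1 (0.0955), and the first ones not called were 1110001J03Rik (0.103) and Unc5b (0.107).

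**Figure D2:**
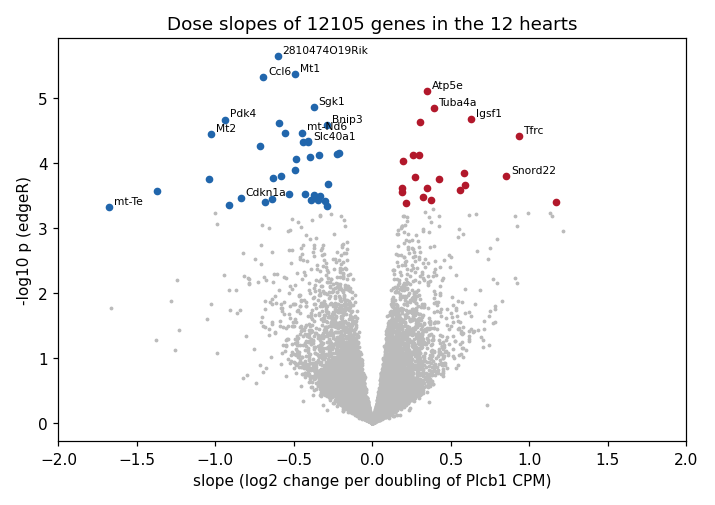
Slope of each of 12105 genes on Plcb1 (horizontal axis, log2 change per doubling of Plcb1 CPM) against -log10 of its unadjusted edgeR p (vertical axis), in the 12 hearts with group means removed. Blue points are the 38 genes called lower with more Plcb1, red points the 21 called higher and grey points the rest; the lowest p is that of 2810474O19Rik.

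Metallothioneins, small metal-binding proteins whose genes lie side by side, were lower in hearts with more Plcb1. Mt1 ran from 21.9 to 29.6 CPM in PLCβ1a hearts (median 26.9) and from 20.05 to 35.5 CPM in PLCβ1b hearts (median 23.7). Its lowest heart in each group was the one with the most Plcb1, PLCβ1a heart 21 and PLCβ1b heart 4. In PLCβ1a hearts the 3 with most Plcb1 all lay below the 3 with least, and in PLCβ1b hearts they did not. Such a split uses the contrast by which the gene was called and adds no support. The slope of Mt1 was -0.49 ± 0.08 (SE, n = 12 hearts, edgeR FDR 0.0190), which over the range of Plcb1 in PLCβ1b hearts is 1.72-fold. Mt2 ran from 2.20 to 3.74 CPM in PLCβ1a hearts (median 3.12) and from 1.32 to 6.22 CPM in PLCβ1b hearts (median 2.83), again lowest in PLCβ1a heart 21 and PLCβ1b heart 4. Its slope was -1.03 ± 0.20 (edgeR FDR 0.0303). Leaving out any 1 heart kept Mt1 below the threshold (highest FDR 0.0659), whereas Mt2 passed it in 11 of 12 such fits and had an FDR of 0.134 without PLCβ1b heart 4.

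Promoters of both metallothionein genes are shown because metals act on these genes through elements in such sequence. They run from 250 bases before to 50 bases after the start given by RefSeq (GRCm38.p6, plus strand), at chr8:94178839-94179138 for Mt1 and chr8:94172368-94172667 for Mt2. Capitals mark the core of the metal response element, searched as TGCACNC or TGCGCNC on either strand, which occurs at 3 places in Mt1 and 4 in Mt2. Of 32851 mouse promoters of the same length, 25.7% hold at least 1 such match.
Mt1 promoter: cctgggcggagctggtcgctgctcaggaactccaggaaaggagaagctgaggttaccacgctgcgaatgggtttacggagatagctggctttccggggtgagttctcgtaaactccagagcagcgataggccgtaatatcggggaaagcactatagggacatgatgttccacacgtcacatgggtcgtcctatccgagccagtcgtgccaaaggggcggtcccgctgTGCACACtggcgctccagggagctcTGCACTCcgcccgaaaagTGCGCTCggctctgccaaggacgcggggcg
Mt2 promoter: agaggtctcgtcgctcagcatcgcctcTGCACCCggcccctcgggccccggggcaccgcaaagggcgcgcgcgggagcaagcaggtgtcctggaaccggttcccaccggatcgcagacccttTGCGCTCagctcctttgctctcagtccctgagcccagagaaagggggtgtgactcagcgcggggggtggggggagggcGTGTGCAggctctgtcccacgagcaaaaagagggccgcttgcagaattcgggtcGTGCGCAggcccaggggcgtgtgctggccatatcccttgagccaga

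Several other genes that rise in fasting or after glucocorticoid were also lower with more Plcb1. Pdk4, the kinase that turns off pyruvate dehydrogenase when fat is the fuel, ran from 106 to 218 CPM in PLCβ1a hearts (median 162) and from 65.9 to 267 CPM in PLCβ1b hearts (median 99.2). PLCβ1b heart 8, with the least Plcb1 of its group, was the highest of all 12, and the next of its group stood at 119 CPM. The slope of Pdk4 was -0.94 ± 0.17 (edgeR FDR 0.0285), and without PLCβ1b heart 8 it was -0.37 with an FDR of 0.579. Sgk1, a kinase that raises ion transport, ran from 28.4 to 34.8 CPM in PLCβ1a hearts (median 31.8) and from 25.1 to 40.5 CPM in PLCβ1b hearts (median 30.6). Its slope was -0.38 ± 0.07 (edgeR FDR 0.0282), and it stayed below the threshold with any 1 heart left out (highest FDR 0.0931). Angptl4, a secreted inhibitor of lipoprotein lipase, had a slope of -0.92, and Cdkn1a, an inhibitor of cell-cycle kinases, one of -0.84. Ddit4, an inhibitor of mTOR signalling, had a slope of -0.58. FDR values of these 3 genes were 0.0953, 0.0856 and 0.0611 (edgeR), and each lost its call in several fits with 1 heart left out. Without PLCβ1b heart 8 the slope of Angptl4 was -0.40 (FDR 0.704), and without PLCβ1b heart 4 that of Ddit4 was -0.38 (0.236).

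A list of 21 glucocorticoid and fasting genes was written after these slopes had been seen, so its count describes them and is no evidence of its own. Of the 20 that could be tested, 7 were called lower and 0 higher, beside 0.314% and 0.173% of all genes, and the list's median slope was -0.38. A further 6 were lower at an unadjusted p under 0.05, among them Fkbp5, a chaperone of the glucocorticoid receptor (slope -0.45, edgeR FDR 0.196), Klf9 (-0.20, 0.304) and Errfi1 (-1.24, 0.272). Without PLCβ1b heart 8, Fkbp5 and Errfi1 were called (slopes -0.76 and -2.33, edgeR FDR 0.0425 and 0.00350). Each was called in only 1 of 12 fits with 1 heart left out, and without PLCβ1a heart 21 their FDR were 0.455 and 0.530. Errfi1 stood apart in PLCβ1a heart 7 (68.9 CPM, next 21.6) and PLCβ1b heart 16 (49.9, next 16.3). Trim63, a muscle ubiquitin ligase, had a slope of 0.15 (edgeR FDR 0.374) and Fbxo32, another, one of -0.17 (0.360). Slopes were negative in both groups for 18 of the 20. When each mouse last ate and the hour of collection are not given in the sources used here, so their part in these slopes was not tested.

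**Figure D3:**
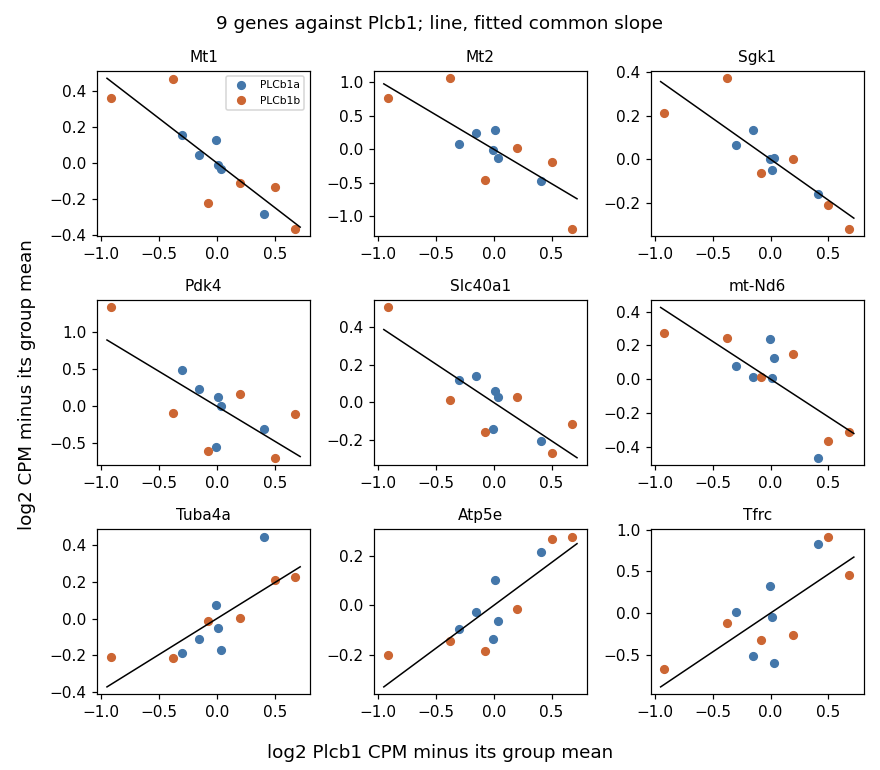
Log2 CPM of 9 genes (vertical axes) against log2 CPM of Plcb1 (horizontal axes), each as the difference from its group mean. Points are hearts, blue for PLCb1a (PLCβ1a) and orange for PLCb1b (PLCβ1b), and lines are the fitted common slopes, which run from -1.03 for Mt2 to 0.93 for Tfrc; PLCβ1b heart 8 is the point at the far left.

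A pair of iron carriers, picked after their slopes were seen, had slopes of opposite sign. Tfrc, the transferrin receptor by which cells take up iron, ran from 32.4 to 86.7 CPM in PLCβ1a hearts (median 48.3) and from 33.2 to 99.8 CPM in PLCβ1b hearts (median 46.4). PLCβ1a heart 21 and PLCβ1b heart 6 were the highest of their groups, and the slope was 0.93 ± 0.18 (edgeR FDR 0.0304). Slc40a1, the iron exporter ferroportin, ran from 10.7 to 13.6 CPM in PLCβ1a hearts (median 12.7) and from 9.94 to 17.0 CPM in PLCβ1b hearts (median 11.6). Its slope was -0.41 ± 0.08 (edgeR FDR 0.0319). Without PLCβ1b heart 8 Slc40a1 had a slope of -0.25 and an FDR of 0.421, and without PLCβ1b heart 6 that of Tfrc was 0.132.

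Atp5e and Tuba4a had the lowest p of the genes higher with more Plcb1. Atp5e, the epsilon subunit of the mitochondrial ATP synthase, ran from 51.5 to 65.7 CPM in PLCβ1a hearts (median 54.9) and from 50.0 to 69.8 CPM in PLCβ1b hearts (median 54.5), and its slope was 0.35 ± 0.06 (edgeR FDR 0.0237). Tuba4a, an alpha tubulin, ran from 163 to 253 CPM in PLCβ1a hearts (median 175) and from 152 to 206 CPM in PLCβ1b hearts (median 175). In both genes the highest hearts were PLCβ1a heart 21 and PLCβ1b heart 4. The 3 PLCβ1b hearts with most Plcb1 all lay above the 3 with least for both genes, and in PLCβ1a hearts this held for neither. Tuba4a had a slope of 0.39 ± 0.07 (edgeR FDR 0.0282) and was the 1 gene called for each group in the fit with a slope per group, with slopes of 0.89 in PLCβ1a hearts (FDR 0.0203) and 0.30 in PLCβ1b hearts (FDR 0.0982). Atp5e and Tuba4a passed the threshold with any 1 heart left out, as did 3 of the 38 lower genes (2810474O19Rik, Mt1 and Sgk1). Ech1, an enzyme of fatty acid oxidation, had a slope of 0.30 (edgeR FDR 0.0285), and Igsf1, a membrane glycoprotein, one of 0.63 (0.0285). Smaller slopes were those of Adck3, which serves coenzyme Q synthesis (0.20), Nme2, a nucleoside diphosphate kinase (0.27), Psmb4, a proteasome subunit (0.29), and Lamb2, a laminin chain of the basement membrane (0.19), with FDR values of 0.0409, 0.0611, 0.0380 and 0.0762 (edgeR).

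Of the remaining genes called lower, 2810474O19Rik had the lowest p of all genes. It ran from 37.3 to 47.0 CPM in PLCβ1a hearts (median 43.5) and from 21.1 to 48.8 CPM in PLCβ1b hearts (median 37.7). The 3 hearts with most Plcb1 all lay below the 3 with least in PLCβ1b but not in PLCβ1a hearts. The slope of 2810474O19Rik was -0.60 ± 0.10 (edgeR FDR 0.0190). Bnip3, a receptor for the removal of mitochondria, ran from 28.9 to 38.2 CPM in PLCβ1a hearts (median 32.97) and from 29.1 to 37.5 CPM in PLCβ1b hearts (median 32.4), a slope of -0.29 ± 0.05 (edgeR FDR 0.0285). Some act in vessels or in lipid handling. S1pr1, a receptor for sphingosine phosphate, had a slope of -0.40 (edgeR FDR 0.0390), and of -0.63 without PLCβ1b heart 8 (0.00350). Its FDR was 0.196 without PLCβ1b heart 4. Entpd1, which breaks down extracellular ATP, had a slope of -0.41 (edgeR FDR 0.0319), Fabp4, a fatty acid carrier of capillary endothelium and fat, one of -0.23 (0.0380), and Abca1, the cholesterol exporter, one of -0.30 (0.0862). Gpx3, a secreted glutathione peroxidase, Fas, a death receptor, and Ppp1r3a, which directs a phosphatase to glycogen, had slopes of -0.34, -0.49 and -0.21 (edgeR FDR 0.0380, 0.0408 and 0.0380). Iigp1, an interferon-induced GTPase, had a slope of -0.59 (0.0285), with PLCβ1b heart 8 at 32.4 CPM above the 21.1 CPM of the next heart of its group. Without PLCβ1b heart 8 the FDR of Entpd1, Fabp4 and Abca1 were 0.162, 0.239 and 0.388. Those of Gpx3, Fas, Ppp1r3a and Iigp1 were then 0.294, 0.216, 0.165 and 0.244 (edgeR). Abca1 was called in only 3 of 12 fits with 1 heart left out. For Bnip3 the FDR was 0.107 without PLCβ1b heart 6.

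Small nucleolar and Cajal body RNAs, which guide the modification of ribosomal and spliceosomal RNAs, were listed after the slopes had been seen. Enough counts were present for 22 of 119, of which 3 were called higher and 0 lower, beside 0.173% and 0.314% of all genes. Slopes were above 0 for 18 (median 0.29, beside 0.0012 over all genes). The median was 0.09 in PLCβ1a and 0.32 in PLCβ1b hearts, and 12 of the 22 were above 0 in both groups. Snord22 ran from 2.07 to 4.82 CPM in PLCβ1a hearts (median 2.83) and from 2.30 to 6.23 CPM in PLCβ1b hearts (median 3.44), highest in PLCβ1a heart 21 and PLCβ1b heart 4. Slopes were 0.85 for Snord22 (edgeR FDR 0.0611), 0.58 for Scarna10 (0.0590) and 0.56 for Snord17 (0.0772), the last falling to 0.29 without PLCβ1b heart 4 (0.403). Snora78 had the steepest slope of the 22, 1.22, with an FDR of 0.134, and was called without PLCβ1b heart 8 (1.76, 0.0759). No other fit with 1 heart left out called Snora78, and without PLCβ1b heart 4 its FDR was 0.590. These RNAs are short, most lie in introns of other genes, and counting by gene cannot tell them from those hosts' unspliced RNA where the strand is shared. Of 62 cytosolic ribosomal protein genes 0 were called, 11 were higher and 2 lower at an unadjusted p under 0.05, and the median slope was 0.07.

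Of 21 mitochondrially encoded genes tested, 4 were called lower (mt-Nd6, mt-Tq, mt-Tp and mt-Te), beside 0.314% of all genes. A split by strand was made after these values had been seen. All 4 lie on the minus strand of the mitochondrial genome. The protein gene mt-Nd6, a subunit of respiratory complex I at positions 13552 to 14070, ran from 185 to 302 CPM in PLCβ1a hearts (median 264) and from 202 to 315 CPM in PLCβ1b hearts (median 276), lowest in PLCβ1a heart 21 and PLCβ1b heart 6. Its slope was -0.45 ± 0.09 (edgeR FDR 0.0303), and without PLCβ1b heart 6 its FDR was 0.132. Its neighbour mt-Te (14071 to 14139), a transfer RNA, had a slope of -1.68 ± 0.41, from levels of 0.205 to 3.25 CPM. The transfer RNAs mt-Tq and mt-Tp had slopes of -1.37 and -1.04 (edgeR FDR 0.0785 and 0.0611), and mt-Ta, the other minus-strand gene with enough counts, had one of -0.62 (0.481). All 5 were negative in both groups. Without PLCβ1b heart 8 the slopes of mt-Te, mt-Tq and mt-Tp were -2.62, -2.29 and -1.71 (edgeR FDR 0.0465, 0.00350 and 0.00350). Their FDR rose to 0.294, 0.291 and 0.246 without PLCβ1b heart 6. On the plus strand, which holds the ribosomal RNAs and the other protein genes, 16 genes had enough counts and 0 were called, 0 were at an unadjusted p under 0.05, and their median slope was -0.09, beside -1.04 for the 5. Among these plus-strand genes mt-Co2, mt-Atp6, mt-Co3 and mt-Nd3 had group means of only 0.642 to 1.53 CPM. Those of mt-Co1 were 36200 CPM in PLCβ1a and 36870 CPM in PLCβ1b hearts. Why these genes had so few counts was not tested, and their slopes say little. The difference between strands was not tested. With library sizes taken from nuclear genes the medians were -0.09 and -1.03, and 3 of the 5 were called. The study's counting used strand, but FPKM of mt-Tq gave a slope of 1.398 (limma FDR 0.961) where counts gave -1.37.

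**Figure D4:**
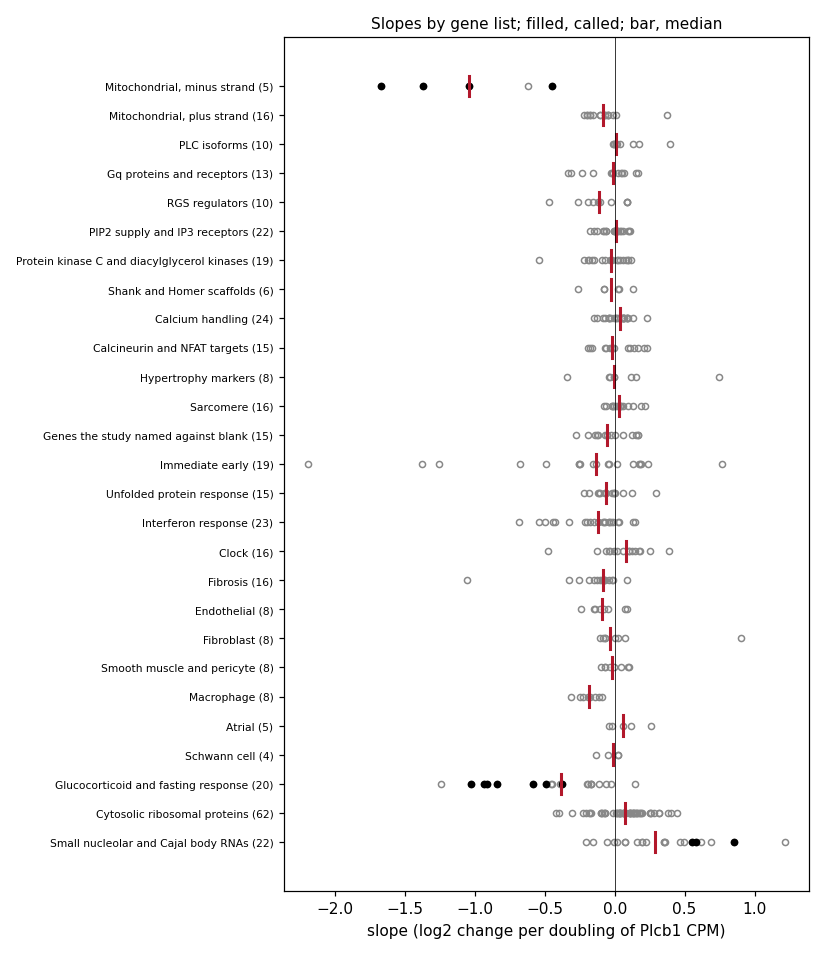
Slopes of the tested members of gene lists (horizontal axis, log2 change per doubling of Plcb1 CPM), 1 row per list with the number of members in brackets. Cardiomyocyte, lymphocyte, erythrocyte and adipocyte markers are not shown, and mitochondrially encoded genes are split by strand. Filled points are called genes, open points are not, and red bars are medians. Filled points occur in 3 rows: minus-strand mitochondrial genes (median -1.04), glucocorticoid and fasting genes (-0.38) and small nucleolar RNAs (0.29). These 3 rows were listed or split after the slopes had been seen, so their filled points are no evidence of their own.

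Genes of the pathway in which PLCβ1 acts gave 0 calls, where 0.487% of all genes were called, so a count of 0 in lists of this size does not set them apart. Of 10 other phospholipase C genes tested, 1 was higher at an unadjusted p under 0.05, Plcd3 (slope 0.40 ± 0.14, edgeR FDR 0.341). Plcb3 and Plcb4, the other β-type enzymes of these hearts, had slopes of 0.01 ± 0.10 and 0.01 ± 0.07. Of 13 genes of Gq proteins and receptors, Adra1a, the α1A-adrenergic receptor, had a slope of 0.17 ± 0.07 (edgeR FDR 0.449) and Ednrb, an endothelin receptor, one of -0.34 ± 0.08 (FDR 0.107). The G protein subunits Gnaq and Gna11 had slopes of 0.05 ± 0.08 and 0.07 ± 0.07. Ednrb came closest to the threshold of all pathway genes and passed it without PLCβ1b heart 8 (slope -0.55, FDR 0.0147), and in each group its 3 hearts with most Plcb1 lay below the 3 with least. Ednrb passed in no other fit with 1 heart left out, and its FDR was 0.315 without PLCβ1a heart 21. Of 10 RGS regulators, which switch G proteins off, Rgs10 alone was at an unadjusted p under 0.05 (slope -0.47, edgeR FDR 0.378).

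Further along the pathway 0 genes were called as well. Among 22 genes of PIP2 supply and inositol trisphosphate receptors, 19 of protein kinase C and diacylglycerol kinases, and 6 Shank and Homer scaffolds, 0 reached an unadjusted p under 0.05. Median slopes of these lists were 0.01, -0.03 and -0.03, and their steepest single slopes were -0.18, -0.54 and -0.26. Prkca, the protein kinase C that lies downstream of PLCβ1b in heart, had a slope of 0.08 ± 0.08. Itpr2, the main inositol trisphosphate receptor of heart muscle cells, had one of -0.0041 ± 0.06, and Shank3, a scaffold that binds PLCβ1b, one of -0.08 ± 0.09. Among 15 calcineurin and NFAT genes, Hdac5, a repressor of Mef2 targets (0.23, edgeR FDR 0.138), Rcan1 (-0.18, 0.360) and Rcan2 (-0.16, 0.209), both inhibitors of calcineurin, were not called. Of 24 calcium handling genes Camk2g, a calcium-dependent kinase, had the lowest FDR (slope 0.23, edgeR FDR 0.161), and it was called without PLCβ1b heart 4 (0.30, 0.0855). No other fit with 1 heart left out called Camk2g, and without PLCβ1b heart 6 its FDR was 0.401.

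Markers of hypertrophy gave 0 calls among 8, again beside 0.487% of all genes. Myh7, the slow myosin heavy chain, ran from 22.2 to 68.5 CPM in PLCβ1a hearts (median 41.8) and from 22.6 to 81.0 CPM in PLCβ1b hearts (median 34.95), with a slope of 0.75 ± 0.30 (edgeR FDR 0.379). It was called without PLCβ1b heart 4 (slope 1.22, FDR 0.0266) and was 0.42 without PLCβ1b heart 6 (FDR 0.799). Acta1, skeletal actin, had a slope of -0.34 ± 0.15 (FDR 0.463), and the natriuretic peptides Nppa and Nppb had slopes of 0.12 ± 0.14 and 0.15 ± 0.13. Those of Myh6, Atp2a2, Pln and Actc1, which encode the fast myosin, the calcium pump, its inhibitor and cardiac actin, lay between -0.04 and 0 with SE values of 0.05 to 0.06. Mybpc3, of 16 sarcomere genes, had a slope of 0.19 (edgeR FDR 0.123, and 0.0994 without PLCβ1b heart 17). Of the 15 genes that the study named for their difference from blank hearts, 0 were called and 10 were on the lower side (median -0.06). Mcf2l, a guanine nucleotide exchange factor, had a slope of -0.27 ± 0.10 (edgeR FDR 0.311), and of -0.48 without PLCβ1b heart 8 (0.0817). Mybpc3 and Mcf2l were each called in only 1 of 12 fits with 1 heart left out, their highest FDR being 0.293 and 0.643. Cecr2, a chromatin factor, had a slope of -0.19 ± 0.08 (FDR 0.449), and Cish, an inhibitor of cytokine signalling, one of 0.13 ± 0.08 (FDR 0.672).

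Other lists gave 0 calls as well. Over all genes 4.81% were lower and 4.92% higher at an unadjusted p under 0.05. Interferon response genes were lower at an unadjusted p under 0.05 for 5 of 23 and higher for 0 (median -0.12), with Rsad2 at -0.44 (edgeR FDR 0.209, and 0.0620 without PLCβ1b heart 4). Of 16 fibrosis genes 4 were lower at that p and 15 had a slope below 0 (median -0.09), with Thbs1 at -1.05 (edgeR FDR 0.420, and 0.0232 without PLCβ1b heart 8). Of 16 clock genes 3 were higher (median 0.08), among them Per3 (0.39, edgeR FDR 0.176, and 0.0814 without PLCβ1b heart 16) and Tef (0.25, 0.304). Rsad2, Thbs1 and Per3 were each called in only 1 of 12 fits with 1 heart left out. Their highest FDR in those fits were 0.483, 0.719 and 0.451. Among 19 immediate early genes 1 was higher and 1 lower (median -0.14), and among 15 unfolded protein response genes 0 (median -0.06). The median of the immediate early genes was -1.79 in PLCβ1a and 0.08 in PLCβ1b hearts. Of these 19, 7 had negative slopes in both groups and 0 had positive slopes in both.

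Markers of macrophages were on the lower side beside these slopes. All 8 macrophage markers had slopes below 0 in both groups (median -0.18), with 3 at an unadjusted p under 0.05, among them Lyz2 (-0.31, edgeR FDR 0.209), which was called without PLCβ1b heart 4 (-0.52, 0.00626). No other fit with 1 heart left out called Lyz2, and without PLCβ1b heart 8 its FDR was 0.665. The summed level of the 8 markers ran from 108 to 139 CPM in PLCβ1a hearts and from 107 to 156 CPM in PLCβ1b hearts, and 0 of the 8 were at 0 in all hearts. Called genes that are known in macrophages include Ccl6, a chemokine (slope -0.69, edgeR FDR 0.0190), and Pla2g7, a secreted phospholipase (-0.72, 0.0352). Neither was called without PLCβ1b heart 8, where their FDR were 0.208 and 0.330. Over the 12 hearts the summed level correlated with Plcb1 at r = -0.55 (exact permutation within groups, two-sided p = 0.142) and rho = -0.60 (p = 0.0619), the adjusted p being 0.914 and 0.433 over 14 measures of a heart. The r was -0.95 in PLCβ1a and -0.46 in PLCβ1b hearts, and -0.71 without the 2 hearts farthest from the median dose. Without PLCβ1b heart 4 it was -0.87 over the 11 others, with an adjusted exact permutation p of 0.0292, and without PLCβ1b heart 8 it was -0.15. The part of these markers in the slopes was not tested.

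The other 13 measures of the hearts had an r nearer to 0 than macrophage markers. Endothelial markers, of which 6 of 8 had slopes below 0 and 3 were at an unadjusted p under 0.05 (Emcn, Pecam1 and Cdh5, slopes -0.24, -0.14 and -0.15), summed to 338 to 368 CPM in PLCβ1a and 334 to 384 CPM in PLCβ1b hearts. Their r was -0.35 (exact permutation p = 0.404). Cardiomyocyte markers summed to 20080 to 21780 CPM over both groups (r = 0.06, exact permutation p = 0.846). Fibroblast (r = -0.14), smooth muscle and pericyte (-0.18), lymphocyte (-0.03), erythrocyte (-0.42), atrial (0.11), adipocyte (-0.26) and Schwann cell markers (-0.37), total counts (0.05), nuclear counts (0.08), the mitochondrial share (-0.14) and the TMM factor (0.09) had an adjusted exact permutation p of 0.914. Some of these r depended on the 2 hearts farthest from the median dose. With those left out, r was -0.63 for the mitochondrial share, 0.51 for the TMM factor and -0.54 for erythrocyte markers. The rest of the 13 then lay between -0.46 (Schwann cell markers) and 0.22 (cardiomyocyte markers). Of 8 erythrocyte markers 6 were in the table and 4 of these were at 0 in all 12 hearts. The lowest unadjusted rank p was that of Schwann cell markers, rho = -0.63 (exact permutation p = 0.0482, adjusted 0.433).

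When each group had its own slope in the fit of all 12 hearts, which share 1 estimate of spread, 8 genes (0.0661%) were called for PLCβ1a hearts and 9 (0.0743%) for PLCβ1b hearts. With each group fitted alone the counts were 56 and 9, of which 8 and 3 were among those of the joint fit. The 9 of PLCβ1b hearts in the joint fit were Atp5e and Tuba4a on the higher side and 7 on the lower side, led by 2810474O19Rik (slope -0.65, edgeR FDR 0.0206). All 9 had the same sign in PLCβ1a hearts, beside 58.3% of all genes. In PLCβ1a hearts 5 of them were at an unadjusted p under 0.05, beside 7.44% of all genes. Of the 8 called for PLCβ1a hearts, 5 (62.5%) had the same sign in PLCβ1b hearts. There 4 of the 8 were under that p with the same sign, beside 7.17% of all genes under it. The 8 of PLCβ1a hearts were led by Scd1, the desaturase that makes monounsaturated fatty acids (slope 2.49, FDR 0.00799), and included Tuba4a, G0s2, an inhibitor of fat breakdown (1.31, 0.0653), Cldn5, a tight junction protein of endothelium (-2.32, 0.0203), Stk17b (-1.25, 0.0203), Rsad2 (-1.57, 0.0304) and Cd14, a receptor for bacterial lipid (-3.30, 0.0509). PLCβ1a heart 21 was the highest or lowest of its group for all 7 of these named genes. Counts of calls moved by more than 1.5 times with single hearts. In PLCβ1a they were 3 without PLCβ1a heart 7 or 21, 47 without PLCβ1a heart 13, and 26 and 33 without PLCβ1b hearts 8 and 16, and in PLCβ1b 2 without PLCβ1a heart 9 or 11, 1 without PLCβ1b heart 6, and 19, 23 and 14 without PLCβ1b hearts 4, 8 and 10.

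Slopes of the groups came from different hearts and can be set against each other. Across the 12105 genes the slopes in PLCβ1a and PLCβ1b hearts correlated at r = 0.20 (rho = 0.21), and 58.3% had the same sign; genes are not independent and no p is given. The r was 0.0188 with no filter on low counts, and -0.0824 and -0.0985 with FPKM and 0.1 or 1 added. Of 868 genes at an unadjusted p under 0.05 in PLCβ1b hearts, 75.5% had the same sign in PLCβ1a hearts, and 153 were under 0.05 in both, 143 of them with the same sign. Over all genes tested, 7.17% were under 0.05 in PLCβ1b hearts and 7.44% in PLCβ1a hearts. The p of both groups share 1 estimate of spread per gene, so the 2 sets are not independent. All 59 genes called over the 12 hearts had the same sign in both groups, which the choice of those genes favours. In PLCβ1a hearts the median SE of a slope was 0.27, beside 0.11 in PLCβ1b hearts.

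**Figure D5:**
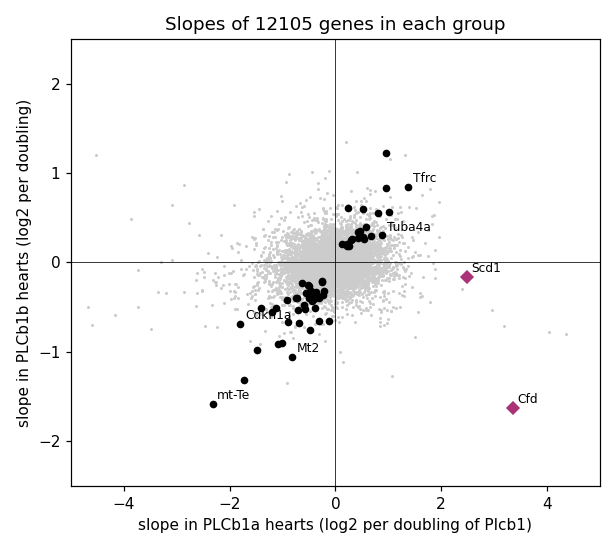
Slope on Plcb1 in PLCb1a (PLCβ1a) hearts (horizontal axis) against that in PLCb1b (PLCβ1b) hearts (vertical axis), in log2 change per doubling of Plcb1, for 12105 genes. Black points are the 59 genes called over the 12 hearts, which all lie in the 2 quadrants of equal sign, and diamonds are Scd1 and Cfd, whose slopes differed between the groups.

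A difference of slopes between the groups was called for 2 genes (0.0165%). Scd1 ran from 7.99 to 27.3 CPM in PLCβ1a hearts (median 9.21) and from 7.43 to 11.3 CPM in PLCβ1b hearts (median 9.36), and Cfd, the adipocyte product adipsin, from 0.329 to 2.20 CPM (median 0.660) and from 0.102 to 1.001 CPM (median 0.290). PLCβ1a heart 21 was the highest of all 12 for both. The slope of Scd1 was 2.49 in PLCβ1a and -0.16 in PLCβ1b hearts, and that of Cfd 3.36 and -1.63. Without PLCβ1a heart 21 neither was called. Adipocyte markers summed to 0.820 to 4.61 CPM in PLCβ1a and 0.359 to 1.70 CPM in PLCβ1b hearts, with r = 0.81 and -0.66 against Plcb1 in the groups, and their part in these slopes was not tested. Cfd is itself among the 6 adipocyte markers and is the only 1 with enough counts to test. The r of the sum is therefore not independent of the slopes of Cfd. Counts of differing genes were 19 without PLCβ1a heart 13, 4 without PLCβ1a heart 21, and 9, 25 and 6 without PLCβ1b hearts 10, 16 and 17.

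Next to Plcb1 on chromosome 2, Tmx4 had a slope of 0.12 ± 0.05 (edgeR FDR 0.433). Of the genes that overlap Plcb1 in the deposited models, 4930545L23Rik and Mir3963 had too few counts to test, as did 9630028H03Rik on the far side.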

How the data were processed

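Libraries were made by the authors from ventricular RNA after ribosomal depletion. Paired, stranded reads were aligned to mm10 with TopHat2 (2.0.10 in the submitters' processing notes) and assigned to genes by HTSeq (union mode, stranded). The deposited table holds raw counts per gene (23457 names). FPKM, deposited by the authors in a second table, were used for Plcb1 and as an alternative. Names turned into dates (27) held 0.044% of the counts.

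Counts of the 12 hearts were scaled by TMM and fitted with edgeR 4.0.16 under R 4.3.3 (glmQLFit and glmQLFTest) with group and dose as terms. Dose was log2 CPM of Plcb1 (prior count 2) centred on its group. Further fits gave each group its own slope and the difference of slopes. Genes with a mean under 10 counts were left out, and Plcb1 itself was not tested. P-values were adjusted by the Benjamini-Hochberg method across the genes tested, with calls at an FDR below 0.1. Measures of a heart were related to dose by permutation over all 518400 arrangements within groups. Alternatives used DESeq2 1.42.0, limma 3.58.1 and sva 3.50.0, and figures matplotlib. The program was checked on simulated data.

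The hearts, genes and lists were chosen with earlier results of these data known. Named genes were the 10 of lowest p in each direction, the 5 of lowest p in each direction for each group and for the difference, the study's 15 genes, 8 hypertrophy markers, pathway members under an unadjusted p of 0.05 plus 7 fixed ones, neighbours of Plcb1, and at most 3 of each other list. Further called genes, the lists of glucocorticoid and fasting genes, small nucleolar RNAs and mitochondrial strands, and genes named from them were chosen after their values were seen. Nuclear counts were 3908354 to 7591558 per heart. A few genes that these rules name are not reported here. The echocardiography is not used here.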

Additional observations from a re-analysis of the deposited data

Results flagged for a closer look

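In each group of 6 the highest or lowest heart was compared with its nearest neighbour (Dixon's ratio of that gap to the group's range) for Plcb1, the named genes and the measures of a heart. Chance marks about 1 in 20 groups, and here 19 of 218 stood out, but many of the genes were named for their slopes on Plcb1, so the counts cannot be set against that rate. PLCβ1b heart 8, with the least Plcb1 of its group, was high for Ccl6 (7.26 CPM, next 4.67), Pdk4 (267, next 119), Iigp1 (32.4, next 21.1), Slc40a1 (17.0, next 12.2), Kcnv2 (11.01, next 8.40), Angptl4 (5.56, next 2.46) and Emcn (18.2, next 14.4). PLCβ1a heart 21, with the most Plcb1 of its group, was high for Tuba4a (253 CPM, next 196), Scd1 (27.3, next 9.85) and Cfd (2.20, next 0.839). PLCβ1b heart 4, with the most Plcb1 of all, was high for Snord17 (20.6 CPM, next 13.3), Snora78 (2.06, next 0.974) and Cish (16.8, next 14.4).

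PLCβ1a heart 7 and PLCβ1b heart 16 were both high for Errfi1 (68.9 and 49.9 CPM, next 21.6 and 16.3) and Thbs1 (74.9 and 55.0 CPM, next 20.5 and 20.3). Nppb stood at 44.9 CPM in PLCβ1a heart 14 (next 30.9) and Actc1 at 2965 CPM in PLCβ1a heart 11 (next 2829). The slope on Plcb1 in PLCβ1b hearts minus that in PLCβ1a hearts was -2.65 for Scd1 and -4.99 for Cfd, and edgeR's test of that difference had an FDR below 0.1.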

How the results depend on the processing

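The 59 calls over the 12 hearts became 141 with no filter on low counts (18892 genes tested), 27 at an FDR below 0.05, 24 without PLCβ1a heart 21 and PLCβ1b heart 8 (chosen after seeing the data), and 0 with limma on log2 FPKM with 0.1 or 1 added or, also added later, with only genes above 0 FPKM in all 12 hearts (651, 663 and 651 at an unadjusted p under 0.05). DESeq2 called 58 and limma-voom 61, and 48 and 58 of these were among the 59. Leaving out the 2 hearts farthest from the median dose gave 68 calls, of which 16 were among the 59. Dose as a rank gave 78, of which 27 were. Of the 24 called without PLCβ1a heart 21 and PLCβ1b heart 8, 10 were among the 59. With each heart left out the count ran from 11 to 93, and 5 of the 59 were called in all 12 such fits, while all 59 kept their sign. Genes lost were 48, 41, 36 and 34 without PLCβ1b heart 6, PLCβ1a heart 21, PLCβ1b heart 4 and PLCβ1b heart 8.

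In PLCβ1a hearts the 8 calls became 117 with no filter, 3 with dose without TMM, from FPKM or as a rank, 14 with 1 surrogate variable, 26 without the 2 hearts farthest from the median dose, 13 without PLCβ1a heart 21 and PLCβ1b heart 8, 5 at an FDR below 0.05, 56 with those hearts fitted alone, and 0 in the FPKM fits. In PLCβ1b hearts the 9 became 76 with no filter, 16 with dose from FPKM, 18 on the linear scale or with nuclear counts as covariate, 43 with 1 surrogate variable, 2 without the 2 farthest hearts, 26 without PLCβ1a heart 21 and PLCβ1b heart 8, 1 at an FDR below 0.05, 9 with those hearts fitted alone (3 of the same genes) and 0 in the FPKM fits. The 2 differences became 0 with DESeq2, limma-voom, rank dose and the FPKM fits, 11 without mitochondrially encoded genes, 50 with no filter, 8 on the linear scale, 5 with 1 surrogate variable, 1 without the 2 farthest hearts and 4 without PLCβ1a heart 21 and PLCβ1b heart 8. With each heart left out these counts ran from 3 to 47, 1 to 23 and 2 to 25.

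The correlation of the groups' slopes was 0.0188 with no filter, and turned to -0.0824 and -0.0985 with FPKM and 0.1 or 1 added, but was 0.23 over genes above 0 FPKM in all hearts. With each heart left out it ran from 0.10 to 0.20. FPKM turned the slopes of Scarna10 (-4.66 and -3.54) and mt-Tq (1.398 and 1.07). Nppb turned to -0.15 without the 2 farthest hearts, and Scd1 to -0.29 without PLCβ1a heart 21 and PLCβ1b heart 8 and -0.15 without PLCβ1a heart 21, its lowest value of a range up to 0.75 with each heart left out. Correlations of macrophage markers with dose ran from -0.87 to -0.15 with each heart left out. Slopes smaller than their SE were read as values without direction. The cause was not tested. No paired analysis was possible because no mouse number occurs in both groups. Limits set by sequencing depth were not tested.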

Other observations

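Further called genes fell in no list. Of those lower with more Plcb1, Myot, a protein of the Z-disc, had a slope of -0.39 (edgeR FDR 0.0856), Kcnv2, a subunit that modifies potassium channels, one of -0.37 (0.0819), Loxl2, which crosslinks collagen, one of -0.49 (0.0553), Mbd1, which binds methylated DNA, one of -0.44 (0.0319), and Mylip, which marks the LDL receptor for removal, one of -0.35 (0.0856). Of those higher, Ndrg4, a gene of heart muscle cells, had a slope of 0.26 (edgeR FDR 0.0380), Efnb3, an ephrin ligand, one of 0.37 (0.0856), and Sorcs2, a sorting receptor, one of 0.42 (0.0611). The 3 PLCβ1b hearts with most Plcb1 all lay below the 3 with least for 14 of the 38 lower genes, and above them for 12 of the 21 higher genes. In PLCβ1a hearts this held for 4 of 38 and 7 of 21. These counts use the contrast by which the genes were called and support nothing.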
